A study of Mus musculus with 24 samples.

Results

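The group described here was 45 lncRNA probes of the 60804 transcript probes on a mouse lncRNA microarray. Members came from the 230 lncRNAs on a list of testis-specific transcripts seen in these lines, and were selected on the detection flag of the array files, which had to mark a probe as well above background on all 9 arrays of the lines F9, GC-1 and GC-2. Of the 55 that met this rule, 10 were set aside because they stand on a list of conserved lncRNAs or of RT-PCR targets. The list itself rests on testis being detected and the other tissues not, with a fold change in the same arrays. The 45 probes carry 43 gene symbols. The tissues were testis, brain, heart, kidney and liver of male mice of 8 weeks, which the methods give as the ICR strain, and the lines were grown without treatment in DMEM with serum, F9 on gelatin, with 3 arrays for each of the 8 groups. Nothing in the labels says whether the 3 arrays of a line came from separate cultures, so p-values measure only the spread between these arrays.

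LncRNAs are long transcripts without a protein product, and many of them overlap or neighbour a protein-coding gene. Host here means the protein-coding gene whose symbol a lncRNA carries. The testis transcribes an unusually wide range of them while germ cells pass from dividing spermatogonia through meiosis to spermatids. F9 cells are an embryonal carcinoma line, a tumour stem cell of testicular origin, GC-1 cells are an immortalized line with features of spermatogonia, and GC-2 cells are an immortalized line with features of spermatocytes, and all 3 divide in culture without completing meiosis.

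Levels are given throughout as log2 of the processed intensity minus the 75th percentile of the same array, so that 0 is that percentile and 1 unit is a doubling. The percentile ran from 30.7 (liver replicate 2) to 384 (testis replicate 1) in intensity, and 18257 to 37393 probes per array were well above background. Marker transcripts were read in the lines. Zfp42, a pluripotency factor, stood at 4.65 ± 0.39 (SD, n = 3) in F9 and was not well above background on any GC-1 or GC-2 array. Stra8, which marks germ cells about to enter meiosis, stood at 1.25 ± 0.34 (SD, n = 3) in F9 and 0.10 ± 0.14 (SD, n = 3) in testis, and was not well above background on any array of GC-1 or GC-2. Star, a Leydig cell gene, was at 2.58 in testis and between -2.31 (F9, SD 1.12) and -1.55 (GC-2, SD 1.40) in the lines. It was well above background on all 3 arrays of GC-1 and of GC-2 and on 1 of F9. A brain lncRNA of the Snap25 locus was not well above background on any line or testis array. Replicate 1 of GC-2 stood apart from its group, with 74 of 19940 probes raised more than 8-fold against the remaining GC-2 arrays and 11 lowered as much, so the calls that rest on GC-2 are also given without it.

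Of the 45 probes, 38 matched a RefSeq gene, which gave 36 genes on 16 chromosomes, with 6 of them on chromosome 4. The genes were protein-coding in 23 cases, pseudogenes in 10, a transcribed pseudogene in 1 and lncRNAs in 2. By what the host is known for, 8 probes belonged to mitosis and the spindle (Kif2c, Cenpf, Dlgap5, Pbk, Diap3, Miip and the pseudogenes Plk-ps1 and Kifc5c-ps), 7 to DNA replication, repair and chromatin (Rad54l, Rad54b, Rfc4, Rpa1, Nfatc2ip, Whsc1 and 4933407H18Rik), 3 to RNA binding and processing (Hnrnpr, Lsm4 and Ddx20) and 7 to other hosts (Pitx3, Spata5, Nlrp4e, Zfp451, Ccdc77, Slc7a5 and 4933411K20Rik). Plk-ps1 and Kifc5c-ps have no host in this sense and were placed by the parent gene in their name. The other 20 probes carried the name of a locus of their own, and 7 of them matched no RefSeq gene, so what they overlap was not read. Pseudogenes among these 20 were not placed by a parent gene. Of the 13 pseudogene and lncRNA genes, Plk-ps1 and Kifc5c-ps included, 5 overlapped a protein-coding gene and 4 lay within 10 kb of one. Probe letters were not used here, so it was not tested whether a probe inside a host also reads the host's mRNA, or a pseudogene probe the parent gene.

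Promoter windows from RefSeq (GRCm38.p6, 300 bases around an annotated start) were read for 18 of the 36 genes, 24 windows in all. Both strands were searched for CCAAT, the CCAAT box, and for TTTGAA, the core of the cell cycle gene homology region found in promoters of many mitotic genes. CCAAT was in 15 of the 24 windows (62.5%) and in 37.4% of all 32851 windows, TTTGAA in 5 (20.8%) and in 17.9%, and both in 4 (16.7%) and in 6.95%. Windows of the same gene overlap for Ccdc77, Miip and Rad54l, so the same motif site can count in more than 1 window. A host's window is the start of the gene and not necessarily of the lncRNA. The windows below are those of Cenpf, a kinetochore protein gene with both motifs, of Rad54l, a recombination gene with 1 CCAAT, and of C920006O11Rik, a lncRNA gene whose own start is shown, with the motifs in capitals on the strand of the gene.
Cenpf, chr1:189688037-189688336, minus strand: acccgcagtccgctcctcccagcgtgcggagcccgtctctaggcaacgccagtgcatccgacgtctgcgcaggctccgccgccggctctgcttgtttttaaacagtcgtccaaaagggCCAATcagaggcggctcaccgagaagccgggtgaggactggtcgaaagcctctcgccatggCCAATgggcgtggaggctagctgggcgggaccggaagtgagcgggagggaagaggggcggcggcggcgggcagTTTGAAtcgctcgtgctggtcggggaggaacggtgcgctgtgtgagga
Rad54l, chr4:116123640-116123939, minus strand: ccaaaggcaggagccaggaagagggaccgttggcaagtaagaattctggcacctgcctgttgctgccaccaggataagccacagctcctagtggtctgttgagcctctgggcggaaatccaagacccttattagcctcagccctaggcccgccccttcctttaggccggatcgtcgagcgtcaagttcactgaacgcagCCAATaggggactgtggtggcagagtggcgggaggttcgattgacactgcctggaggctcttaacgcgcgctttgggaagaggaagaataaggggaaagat
C920006O11Rik, chr9:78175664-78175963, plus strand: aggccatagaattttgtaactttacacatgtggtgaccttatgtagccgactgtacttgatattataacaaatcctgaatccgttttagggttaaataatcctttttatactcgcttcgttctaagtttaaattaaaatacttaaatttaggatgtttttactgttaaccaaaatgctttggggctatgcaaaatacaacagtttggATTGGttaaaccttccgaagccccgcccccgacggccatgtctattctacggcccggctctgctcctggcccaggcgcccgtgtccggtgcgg
In Cenpf both CCAAT letters and TTTGAA read forward, and in C920006O11Rik the CCAAT box is on the opposite strand and appears as ATTGG.

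The plot of levels on every array shows the group in all tissues and lines. The rule used the lines, and the study's list used testis against the other tissues, so these levels are a description without a test. In whole tissue, fewer cells of a type and less RNA per cell cannot be told apart. Levels within the group spanned a wide range, from -2.53 to 4.77 in testis (median -0.46), with F9 running from -1.83 to 4.74 (median 0.01), GC-1 from -2.31 to 4.0 (median -0.42) and GC-2 from -2.55 to 4.21 (median -0.19). In the other tissues the medians were between -3.84 (brain) and -3.19 (liver). All 45 were well above background on the 3 testis arrays. No probe was so on all 3 arrays of brain, heart, kidney or liver, but 31 were on at least 1 of these 12 arrays and at most on 6, and 14 on none, among them Kif2c, Cenpf, Dlgap5, Diap3, Rad54l, Rad54b, Rfc4, Nfatc2ip and Slc7a5. At least 1 brain array was so for 25 probes, 1 heart array for 20, 1 kidney array for 13 and 1 liver array for 6. No share over all probes is given for these counts. They hold for this flag only. A looser flag, for a positive and significant signal, marked Diap3 and Slc7a5 on all 3 brain arrays. It marked Cenpf on all 3 heart and all 3 kidney arrays, and Dlgap5 on 1 heart array alone. All 3 testis arrays lay above all 12 arrays of the other tissues for 41 probes (13% of all probes on the array), and all 9 line arrays did so for 32 (5.55% of all probes).

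**Figure D1:**
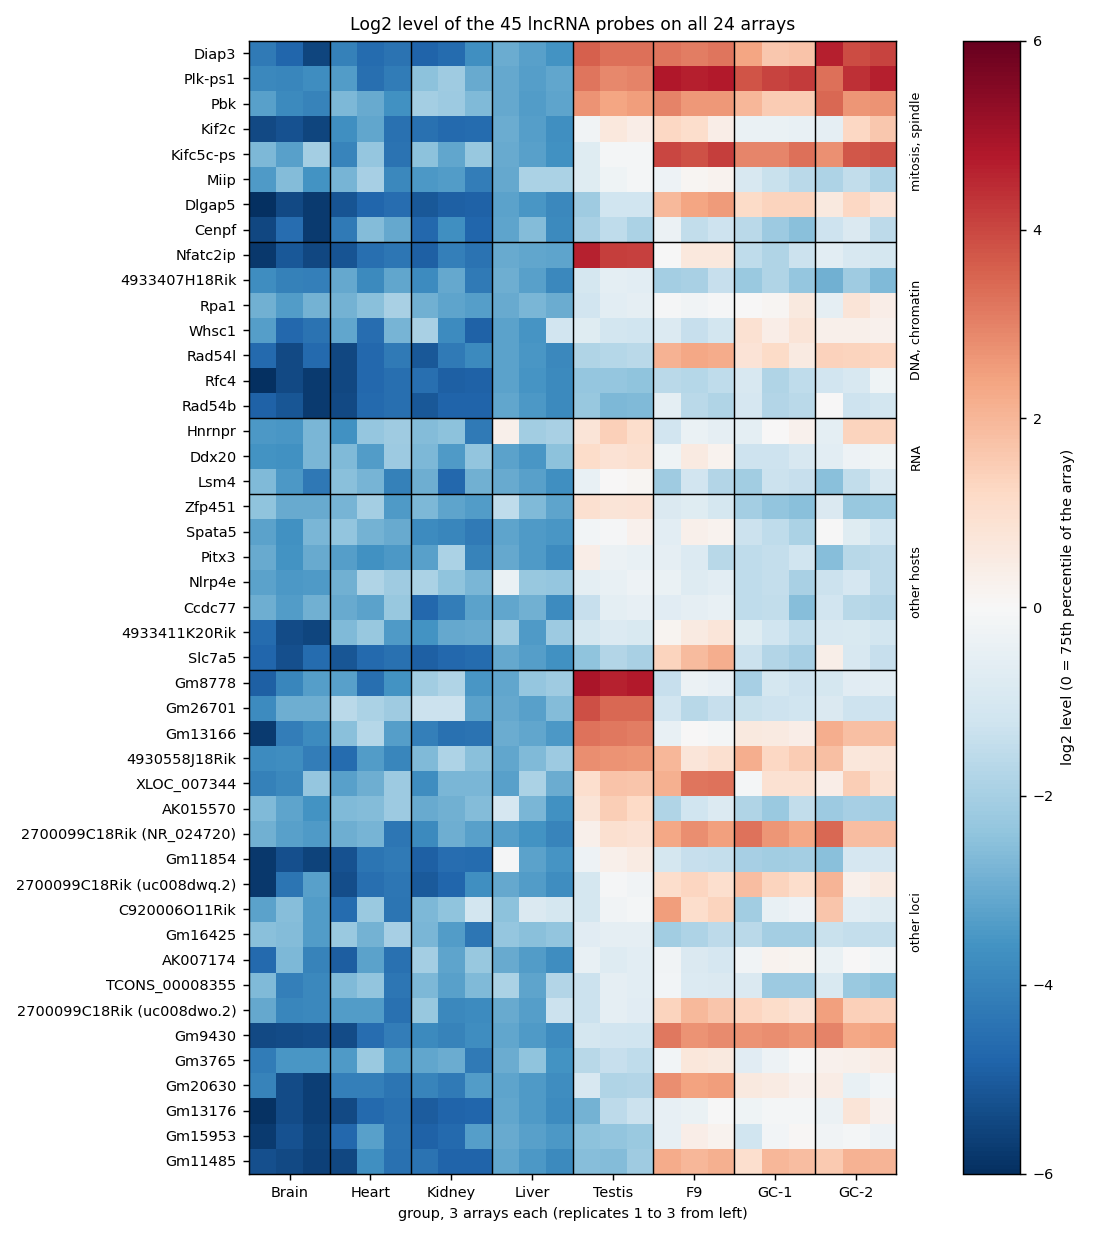
Log2 level (colour, 0 = 75th percentile of the array) of the 45 probes, in rows by host role, on the 24 arrays, in columns by group. Brain, heart, kidney and liver are blue throughout most rows, with medians from -3.84 to -3.19, while testis and the lines range from -2.55 to 4.77 in group means.

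Over liver, where the probes below were not well above background on any array, the testis level was at least 66.7-fold higher for Gm8778, 47.9-fold for Nfatc2ip, 25.7-fold for Diap3 and 14.0-fold for Pbk, taking in place of the liver level the lowest signal that was well above background where that was higher. For 11 of the 45 probes this bound was under 1 in liver, and no fold is given for them. At the edge of the rule, the dimmest flagged reading of a member was an intensity of 16.6 (Ccdc77, GC-1 replicate 3), and 15 further lncRNAs missed the rule by 1 of 9 line arrays, with intensities of 7.05 to 18.9 on the array that missed.

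Relative to testis, the group split in both directions. The lines were not tested against testis, since both entered the choice of probes. Apart from replicate 1, the testis arrays also lay on a different slide from the line arrays. All 3 arrays of every line lay above all testis arrays for 15 probes and below for 13, and 17 did neither. Of all probes 53.6% lay above in this way and 15.6% below, and of the 19940 probes well above background on every line array 64.6% and 9.19%. These numbers depended on the scaling, and were 5 above and 22 below when arrays were scaled on the probes well above background on all 24 arrays, and 6 and 20 when centred on the median of the probes well above background. No share over all probes is given under these scalings, here or for the mean levels below. A move of the members thus cannot be told from a move of whole arrays. F9 had 21 above testis and 15 below, where 63.7% of all probes lay above and 19.8% below, and 73.9% and 14% of the 19940. GC-1 had 18 above and 22 below, against 63.7% and 20.7% of all probes and 74% and 14.3% of the 19940. GC-2 had 19 above and 15 below, against 61.1% and 20.8% of all probes and 73.3% and 13.6% of the 19940. The group's median difference from testis was 0.38 for F9, -0.67 for GC-1 and 0.44 for GC-2, where those 19940 probes had 1.59, 1.5 and 1.52. Mean levels above testis, counted in 26 probes for F9, 19 for GC-1 and 24 for GC-2, dropped to 13, 12 and 12 under the first of these scalings.

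Of the 8 probes of the mitotic group, 3 lay above testis in all lines (Dlgap5, Plk-ps1 and Kifc5c-ps), none below in all, and 5 did neither. Plk-ps1, a pseudogene of a polo-like kinase, lay below testis in GC-1 and GC-2 under both of those scalings, by -0.50 and -0.44 under the first. Kifc5c-ps, a pseudogene of a minus-end kinesin, read -0.73, -0.12 and -0.12 in testis against 4.01, 3.83 and 4.17 in F9, 2.93, 2.91 and 3.28 in GC-1 and 2.76, 3.71 and 3.81 in GC-2. Its difference from testis was 4.33 (SE 0.30), 3.36 (SE 0.30) and 3.75 (SE 0.30), so the line arrays stood far from the testis arrays. Rad54l, a motor of homologous recombination, read -1.79, -1.73 and -1.62 in testis and 2.11, 2.30 and 2.23 in F9, a difference of 3.92 (SE 0.20), with 2.55 and 3.04 for GC-1 and GC-2. The pseudogene Gm11485 had the largest difference among the probes higher in the lines, at -2.54, -2.61 and -2.13 in testis and 2.22, 2.01 and 2.15 in F9, with differences of 4.56, 4.04 and 4.33 (SE 0.28 each) in F9, GC-1 and GC-2. Gm9430, a pseudogene on the X chromosome, was higher by 4.04, 3.84 and 3.71 (SE 0.22 each). Kifc5c-ps, Rad54l, Gm11485 and Gm9430 kept their sign in every line under the 4 other scalings run.

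Other loci had their level mainly in testis. Gm8778, a pseudogene on chromosome 6 that overlaps Clec2g, read 4.90, 4.64 and 4.78 in testis and -1.38, -0.34 and -0.48 in F9, with differences of -5.50, -6.19 and -5.57 (SE 0.32 each) in F9, GC-1 and GC-2. The probe in Nfatc2ip, whose protein carries SUMO-like domains, read 4.63, 4.14 and 4.11 in testis and had differences of -3.88, -5.84 and -5.19 (SE 0.26 each). Gm26701 had -5.00, -4.86 and -4.72 (SE 0.22 each), and all of these signs held under the other scalings. These 3 probes met the detection rule in the lines at levels far under those of testis, as the plot of differences from testis shows.

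**Figure D2:**
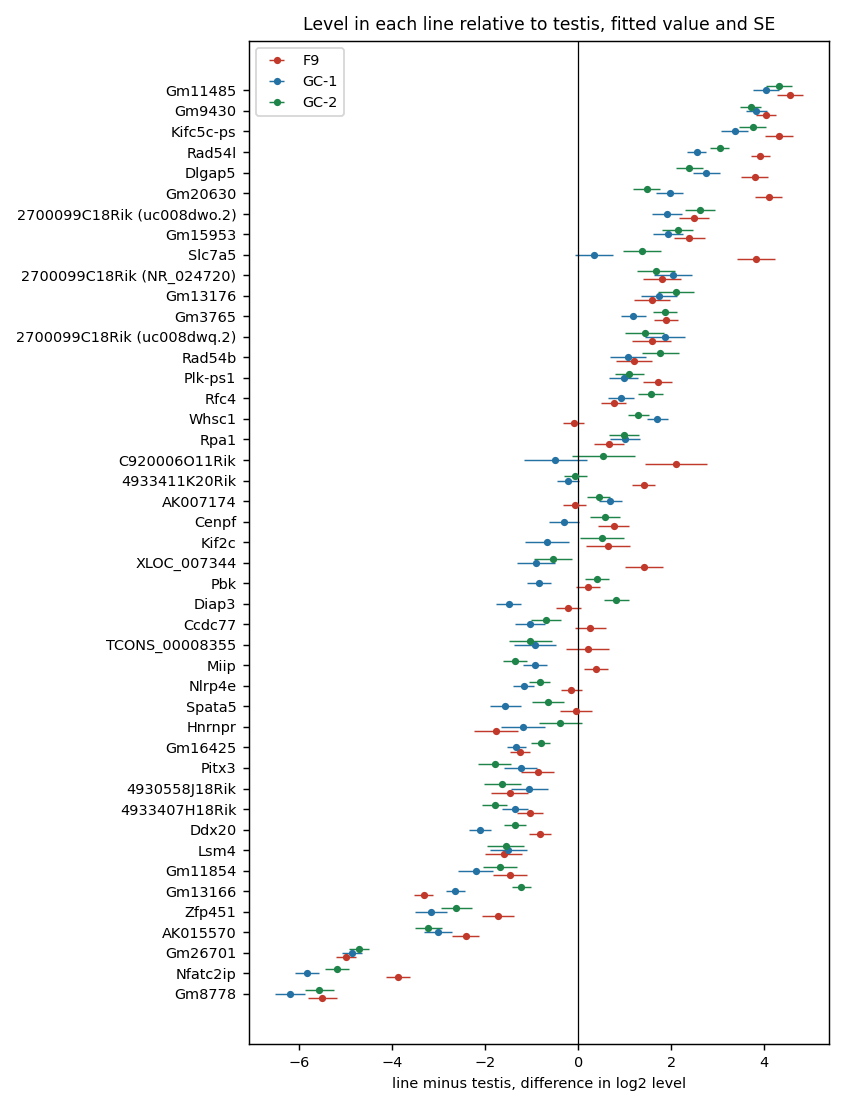
Difference in log2 level between each line and testis (x axis) for the 45 probes, with fitted value and SE, F9 red, GC-1 blue and GC-2 green. The 13 probes below testis in all lines sit at the bottom and the 15 above it towards the top, reaching 4.56 for Gm11485 in F9.

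Differences between the lines were tested with limma across all 60804 probes with Benjamini-Hochberg adjustment. The rule did not use these differences, but it asked for detection on the same 9 arrays and so left out probes that were off in a line. Of the 175 listed lncRNAs not on in all lines, 64.6%, 60% and 35.4% were called between F9 and GC-1, F9 and GC-2, and GC-1 and GC-2, and the nearer background for the group is the 19940 probes well above background on every line array. Between F9 and GC-1, 18 of the 45 were called at an adjusted p of 0.05 or less, 17 of them higher in F9 and 1 lower, against 23.5% of all probes (12.9% higher and 10.5% lower) and 35.6% of the probes well above background on all line arrays (20.6% higher and 15% lower). Higher in F9 were 37.8% of the group. The median difference was 0.70 in the group and 0.18 over those 19940 probes. That background shifted with the scaling, to -0.15 when arrays were centred on the median of the probes well above background, where 36.3% of the background calls were higher in F9 in place of 57.8%, and the group then had a median of 0.37 with 10 called higher and 2 lower. The arrays of the lines did not overlap for 27 of the 45, with 37.2% of all probes and 59% of the 19940.

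The probes higher in F9 than in GC-1 were 5 of the 8 mitotic probes, 2 of the 7 of DNA and chromatin, 1 of the 3 of RNA processing, 6 of the 7 other hosts and 3 of the 20 other loci. The largest difference was for Slc7a5, whose host gene encodes the large neutral amino acid transporter. It read 1.34, 1.88 and 2.18 in F9, -1.30, -1.77 and -2.01 in GC-1, 0.33, -0.96 and -1.38 in GC-2 and -2.40, -1.76 and -1.93 in testis. The F9 arrays were thus above all others, by 3.49 over GC-1 (SE 0.43, 11.2-fold, limma with Benjamini-Hochberg adjustment, adjusted p = 0.000278) and by 2.46 over GC-2 (SE 0.43, 5.52-fold, adjusted p = 0.00256 in the same fit). Replicate 1 of GC-2 was the highest GC-2 array, and without it the difference from GC-2 was 2.96.

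Gm20630, a pseudogene within Ros1 on chromosome 10, read 2.81, 2.39 and 2.53 in F9, 0.60, 0.47 and 0.26 in GC-1 and 0.45, -0.43 and -0.16 in GC-2. It was higher in F9 by 2.13 (SE 0.27, limma with Benjamini-Hochberg adjustment, adjusted p = 0.000308) and 2.62 (SE 0.27, adjusted p = 7.99e-05), with no overlap between F9 and either line. XLOC_007344 read 2.13, 3.21 and 3.28 in F9, -0.12, 0.93 and 0.89 in GC-1 and 0.39, 1.48 and 0.91 in GC-2, higher in F9 by 2.31 (SE 0.43, limma with Benjamini-Hochberg adjustment, adjusted p = 0.0032) and 1.95 (SE 0.43, adjusted p = 0.0086). Its lowest F9 array was replicate 1, and replicate 1 was also lowest in GC-1 and GC-2. C920006O11Rik, whose start is printed above, read 2.51, 1.08 and 1.34 in F9 and -2.09, -0.45 and -0.30 in GC-1. Its difference of 2.59 (SE 0.71) had an adjusted p of 0.0261 with limma and Benjamini-Hochberg adjustment, and of 0.0511 with the replicate as a block. The replicate 1 arrays, which shared a slide, differed by 4.60 and the other arrays by 1.59, and the call was lost without replicate 1 of F9, replicate 3 of F9 or replicate 1 of GC-1, under quantile normalization and under centring on the median of the probes well above background.

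Other probes called higher in F9 than in both GC lines had smaller differences. Nfatc2ip read -0.03, 0.62 and 0.65 in F9, -1.52, -1.81 and -1.31 in GC-1 and -0.63, -0.98 and -1.07 in GC-2, which is 1.96 and 1.31 higher in F9 with no overlap, although all lines lay under testis. Rad54l, at 2.11, 2.30 and 2.23 in F9, stood above GC-1 (0.82, 1.17 and 0.55) by 1.37 and above GC-2 (1.37, 1.34 and 1.28) by 0.88. Miip, whose host inhibits cell migration, was higher by 1.32 and 1.74, and 4933411K20Rik, now Cfap97, by 1.63 and 1.47. Probes called between F9 and GC-1 but not between F9 and GC-2 included Spata5, Zfp451, Ddx20, Ccdc77, Nlrp4e and Kifc5c-ps, with differences of 0.96 to 1.52, and the call of Kifc5c-ps, the smallest, was lost in 12 of the alternatives run. The call of Rad54l against GC-2 was lost without replicate 2 or 3 of either line, in the fit of all 24 arrays and under centring on the median of the probes well above background.

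Within the group of DNA replication, repair and chromatin, Rad54b, Rfc4, Rpa1 and 4933407H18Rik (now Uvssa, of transcription-coupled repair) were called in no comparison. Rfc4, a subunit of the clamp loader, read -1.60, -1.69 and -1.50 in F9 and -1.15, -0.97 and -0.28 in GC-2, a difference of -0.80 with a 95% interval of -1.48 to -0.12. Of the RNA group, Ddx20, a helicase of the SMN complex, was 1.30 higher in F9 than in GC-1. Hnrnpr, an RNA-binding protein gene, read -1.13, -0.38 and -0.54 in F9 and -0.59, 1.35 and 1.32 in GC-2, and replicate 1 was the lowest array of each line. Its F9 minus GC-2 difference of -1.38 had an adjusted p of 0.0808 by limma with Benjamini-Hochberg adjustment, and of 0.0163 with the replicate block. The block added 7 more calls, for Gm8778 (adjusted p = 0.0334), TCONS_00008355 (0.00743), Gm3765 (0.0438) and Cenpf (0.0328) between F9 and GC-1, and for Nlrp4e (0.0416), TCONS_00008355 (0.00543) and Ccdc77 (0.0496) between F9 and GC-2. Lsm4 differed between the lines by -0.10 to 0.05, with intervals reaching from -1.05 to 1.00.

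Whsc1, now Nsd2, encodes a methyltransferase of histone H3 lysine 36, and its lncRNA was the 1 probe called lower in F9 against both other lines. It read -0.80, -1.36 and -1.12 in F9, 0.90, 0.41 and 0.77 in GC-1 and 0.31, 0.29 and 0.26 in GC-2, while testis (-0.72, -1.10 and -1.17) overlapped F9. The difference from GC-1 was -1.79 (SE 0.23, limma with Benjamini-Hochberg adjustment, adjusted p = 0.000376) and from GC-2 -1.38 (SE 0.23, adjusted p = 0.00197). The latter was not called in a fit of all 24 arrays, where the spread of the tissues enters (adjusted p = 0.114).

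**Figure D3:**
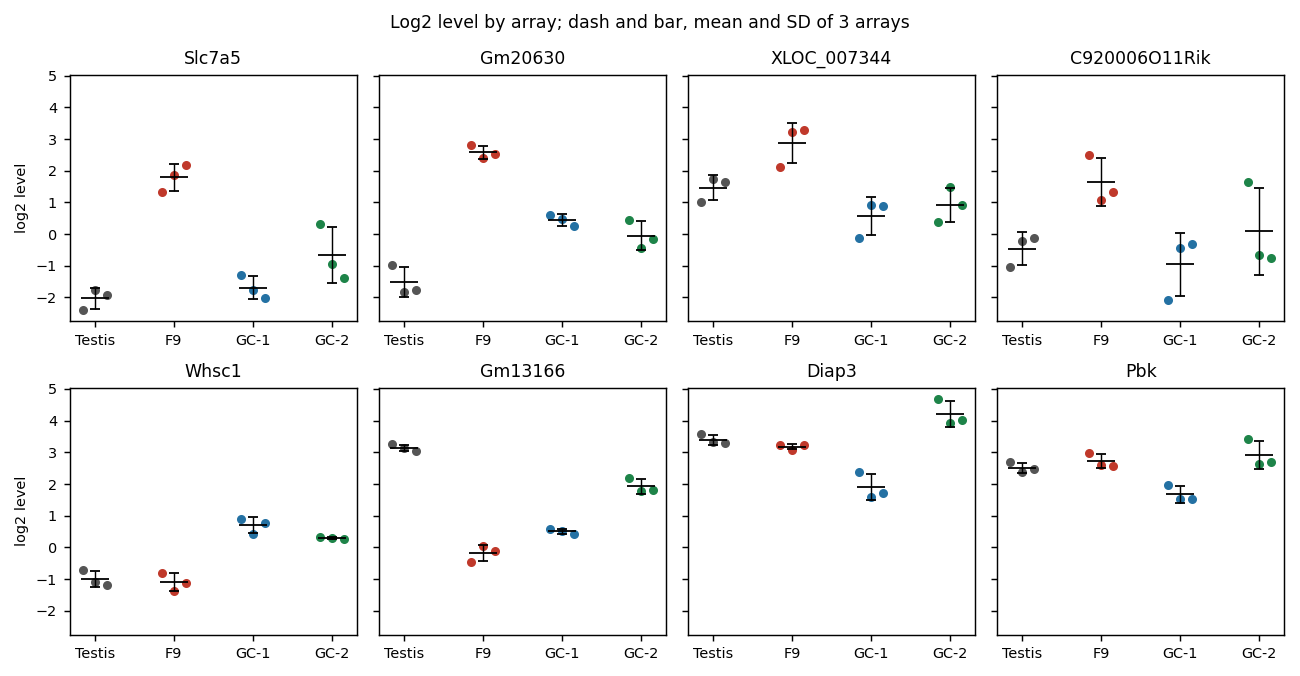
Log2 level of 8 probes by array in testis and the 3 lines, points for single arrays, dash and bar for mean and SD of 3 arrays. Slc7a5, Gm20630 and XLOC_007344 sit highest in F9, Whsc1 lowest of the lines in F9, and Diap3 and Pbk lowest in GC-1.

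Between F9 and GC-2, 11 of 45 were called, 8 higher in F9 and 3 lower, against 23.3% of all probes (13.4% higher and 9.89% lower) and 34.5% of those on in every line (19% higher and 15.5% lower), and the group's share of 24.4% lay under the latter. The median difference was 0.23 in the group and 0.14 over the 19940 probes, and with arrays centred on the median of the probes well above background the calls were 7 higher and 7 lower. That centring called 2174 of the 19940 higher and 4363 lower. Arrays did not overlap for 19 of the 45, with 35.3% of all probes and 55.2% of the 19940. All 8 higher in F9 were also called higher against GC-1, which uses the same F9 arrays: Slc7a5, Gm20630, XLOC_007344, Miip, Dlgap5, Rad54l, Nfatc2ip and 4933411K20Rik. Gm13166 had the largest difference in the other direction. It read -0.45, 0.04 and -0.10 in F9, 0.58, 0.53 and 0.42 in GC-1 and 2.19, 1.79 and 1.80 in GC-2, below testis (3.25, 3.14 and 3.06) in every line. The step from F9 to GC-2 was -2.10 for F9 minus GC-2 (SE 0.23, limma with Benjamini-Hochberg adjustment, adjusted p = 0.000111), and F9 and GC-1 did not overlap but were not called apart (adjusted p = 0.057 in the same fit).

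Between GC-1 and GC-2, 3 of 45 were called, all lower in GC-1, against 9.23% of all probes (5% higher and 4.22% lower) and 12.3% of those on in every line (5.59% higher and 6.66% lower). Arrays did not overlap for 13 of the 45, with 23.5% of all probes and 40.4% of the 19940. These were Diap3, Gm13166 and Pbk. Gm13166 differed by -1.42 (SE 0.23, limma with Benjamini-Hochberg adjustment, adjusted p = 0.00334). The median difference was -0.36 in the group and -0.02 over the 19940 probes, and 11 of the 45 had an unadjusted p under 0.05. No share over all probes or over the 19940 is given for that last count, so it is not read as a result about the group. Without replicate 1 of GC-2, 6 were called, where 2738 of the 19940 probes were. Of the 14 calls against GC-2 in both comparisons, that of Diap3 between F9 and GC-2 was the 1 lost without this array, and the others kept their sign, with F9 minus GC-2 at 2.87 for Gm20630, 1.68 for XLOC_007344, -1.97 for Gm13166 and -1.37 for Whsc1, and GC-1 minus GC-2 at -2.07 for Diap3, -1.29 for Gm13166 and -0.99 for Pbk. With the replicate number as a block, the 3 comparisons had 21, 15 and 3 calls, against 27.5%, 30.5% and 11.3% of all probes and 43.5%, 43.7% and 16.6% of the 19940. For all 32 calls over the 3 comparisons, the arrays of one line did not overlap those of the other. The same sign on the first and the third slide follows from this and is no further support.

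**Figure D4:**
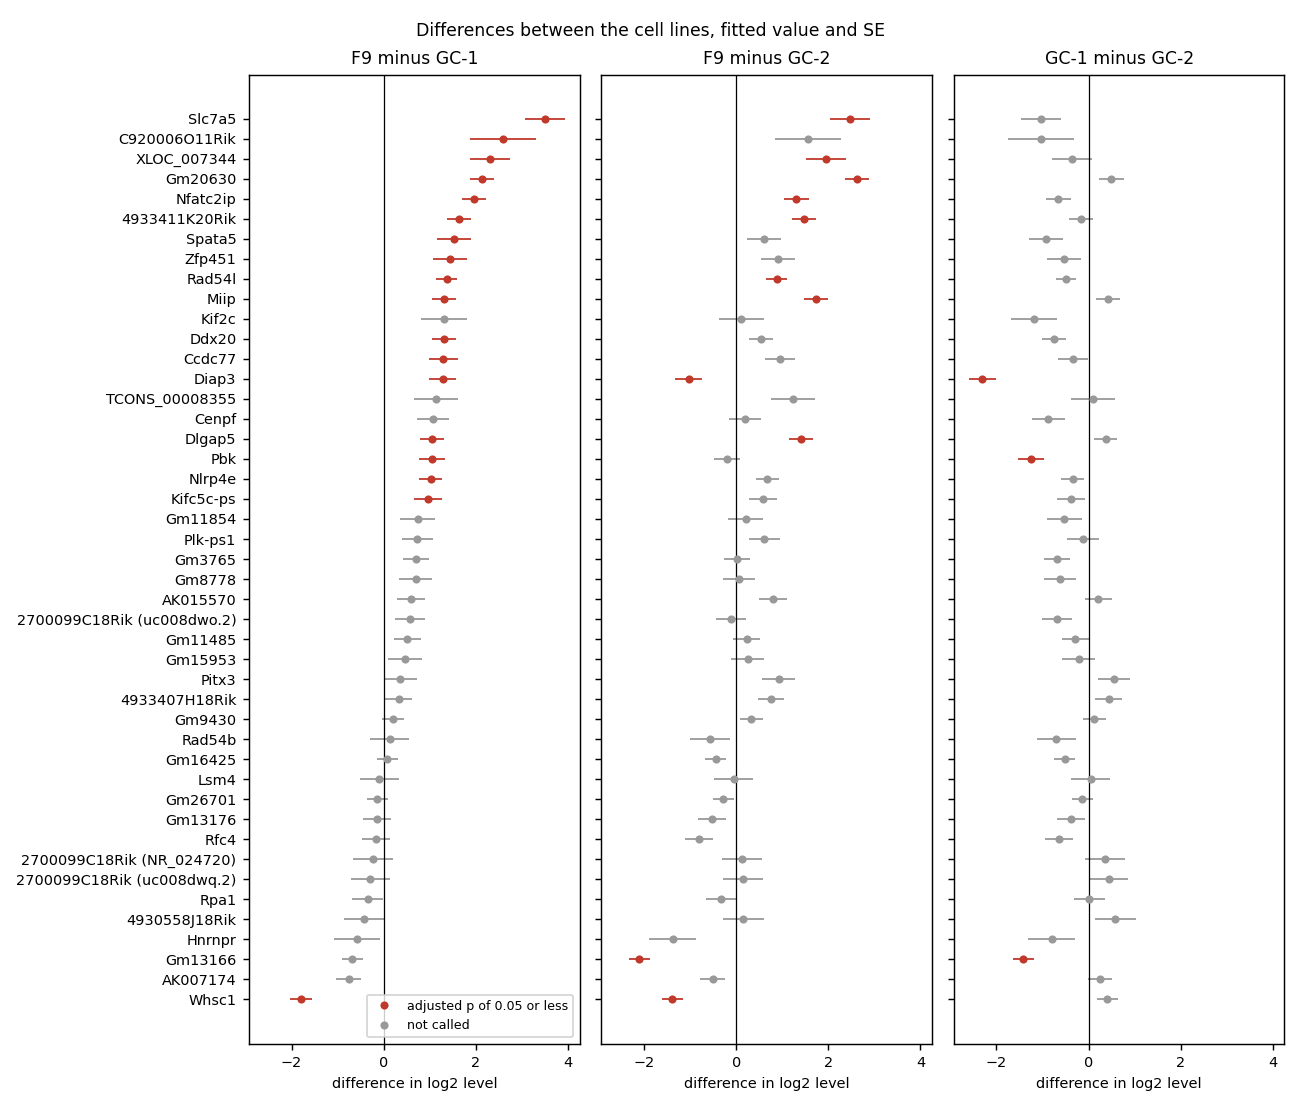
Difference in log2 level between pairs of lines (x axis) for the 45 probes, fitted value and SE, red where the adjusted p was 0.05 or less. Red points lie mostly right of 0 for F9 minus GC-1 (17 of 18) and F9 minus GC-2 (8 of 11), and left of 0 for GC-1 minus GC-2 (3 of 3).

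Diap3, now Diaph3, encodes a formin that nucleates actin filaments and takes part in cytokinesis. Its lncRNA read 3.23, 3.08 and 3.23 in F9, 2.38, 1.60 and 1.73 in GC-1, 4.68, 3.91 and 4.03 in GC-2 and 3.57, 3.32 and 3.29 in testis, and none of these groups overlapped. It was called in all 3 comparisons, at 1.28 (SE 0.29) for F9 minus GC-1, -1.03 (SE 0.29) for F9 minus GC-2 and -2.31 (SE 0.29) for GC-1 minus GC-2, with adjusted p of 0.00987, 0.0286 and 0.000752 by limma with Benjamini-Hochberg adjustment. The call between F9 and GC-2 was lost without replicate 2 or 3 of F9 or replicate 1 or 3 of GC-2, and the value without replicate 1 of GC-2 was -0.79. The call between F9 and GC-1 was lost with arrays centred on the median of the probes well above background.

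Pbk, a mitotic kinase, read 2.97, 2.61 and 2.58 in F9, 1.98, 1.54 and 1.51 in GC-1 and 3.44, 2.64 and 2.69 in GC-2 with its lncRNA probe. GC-1 lay below both other lines, by 1.04 for F9 minus GC-1 (SE 0.28, limma with Benjamini-Hochberg adjustment, adjusted p = 0.023) and -1.24 for GC-1 minus GC-2 (SE 0.28, adjusted p = 0.0208), and F9 minus GC-2 was -0.20, with a 95% interval of -0.83 to 0.42. Both calls were lost without replicate 2 or 3 of GC-1, and with arrays centred on the median of the probes well above background, and the first also without replicate 1 or 2 of F9. Dlgap5, a spindle protein, read 1.95, 2.38 and 2.58 in F9, 1.13, 1.33 and 1.33 in GC-1 and 0.61, 1.25 and 0.82 in GC-2, with F9 above both by 1.04 and 1.41 (SE 0.26 each, limma with Benjamini-Hochberg adjustment, adjusted p = 0.0152 and 0.00305). The first of these was lost without replicate 2 or 3 of F9 or replicate 1 of GC-1.

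The mRNA probes of the same 3 genes stand on the study's list of testis-specific mRNAs, and their values are set beside the lncRNA probes. For Diap3 the mRNA differences were 0.93 (SE 0.35), -1.26 (SE 0.35) and -2.19 (SE 0.35) for F9 minus GC-1, F9 minus GC-2 and GC-1 minus GC-2, and the last 2 were called (limma with Benjamini-Hochberg adjustment, adjusted p = 0.0284 and 0.00358). For Pbk they were 1.01, -0.20 and -1.21 (SE 0.31 each), with the first and last called (adjusted p = 0.0398 and 0.0365 in the same fit). For Dlgap5 they were 1.01, 0.88 and -0.13 (SE 0.25 each), with the first 2 called (adjusted p = 0.0161 and 0.0313 in the same fit). The Diap3 call between F9 and GC-2 was lost without replicate 2 or 3 of F9 or replicate 1 or 3 of GC-2, and the Dlgap5 call between F9 and GC-1 without replicate 2 or 3 of GC-1. The Dlgap5 call between F9 and GC-2 was lost without replicate 2 or 3 of F9, replicate 2 of GC-1 or replicate 2 or 3 of GC-2. The Pbk call between F9 and GC-1 held only without replicate 1 of GC-1 or of GC-2, and that between GC-1 and GC-2 only without replicate 1 of F9 or of GC-1, among the 9 arrays left out in turn.

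**Figure D5:**
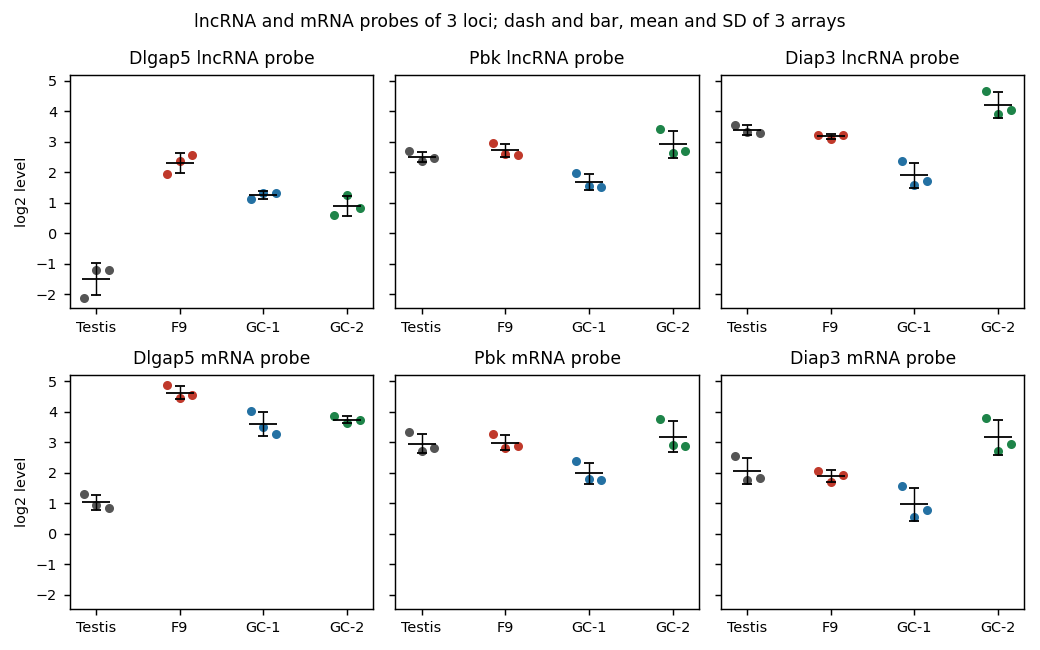
Log2 level of the lncRNA probe (upper row) and the mRNA probe (lower row) of Dlgap5, Pbk and Diap3 by array in testis and the 3 lines, dash and bar for mean and SD of 3 arrays. In both rows GC-1 is the lowest line for Pbk and Diap3, and F9 the highest for Dlgap5.

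As a wider view of the mitotic genes, 48 mRNA probes of 47 cell division genes on the study's list were read. The study chose that list on these samples. Of them, 16 were called between F9 and GC-1, 13 higher in F9 and 3 lower, 14 between F9 and GC-2, 8 higher and 6 lower, and 4 between GC-1 and GC-2, 1 higher and 3 lower. Bora, an activator of Aurora A, had the largest difference, at 3.33 for F9 minus GC-1 and 3.29 for F9 minus GC-2. The medians were 0.25, 0.17 and -0.14, and the shares called, 33.3%, 29.2% and 8.33%, lay below the 35.6%, 34.5% and 12.3% of all probes on in every line. In the 8 mitotic lncRNA probes, the medians were 1.05, 0.38 and -0.63, and all 8 differences of F9 minus GC-1 were above 0, as were all 7 of the other hosts, whose medians were 1.44, 0.92 and -0.35. Over all 45 probes, 33 were above 0. These are counts of probes and not of replicates, and no share above 0 is given for the 19940 probes. The median of those was 0.18 for F9 minus GC-1, and -0.15 when centred on the median of the probes well above background. Miip, described above by cell migration, is among the 8. Of the mitotic probes, Cenpf (1.07, adjusted p = 0.0566), Kif2c (1.30, adjusted p = 0.0922) and Plk-ps1 (0.73, adjusted p = 0.175) were not called by limma with Benjamini-Hochberg adjustment.

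Among the 26 probes called in no comparison were the 3 probes of 2700099C18Rik, a transcribed pseudogene on chromosome 17. The mean levels of the 3 probes were 0.70, -0.46 and -0.84 in testis and 2.50, 1.12 and 1.66 in F9, 2.74, 1.41 and 1.08 in GC-1, and 2.37, 0.97 and 1.77 in GC-2, in the order NR_024720, uc008dwq.2 and uc008dwo.2. All 3 were above testis on all line arrays, but not under the scaling on probes well above background on all 24 arrays, where uc008dwq.2 differed from testis by -0.01 in F9 and -0.11 in GC-2. Their differences between lines ran from -0.69 to 0.57, and replicate 1 of GC-2 (3.43, 2.04 and 2.48) stood above the other GC-2 arrays for each. Gm9430 differed little, at 0.20, 0.33 and 0.12, with 95% intervals of -0.35 to 0.76, -0.22 to 0.88 and -0.43 to 0.68.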

How the data were processed

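Total RNA of the 24 samples was hybridised to Arraystar mouse lncRNA arrays in 1 colour. Per the file headers, the authors extracted intensities with Feature Extraction 11.5.1.1 and deposited a processed intensity and detection flags (0 or 1, other) per spot, not normalized between arrays. The deposited matrix held the same processed intensity, with a largest relative difference of 0.000228. The methods name GeneSpring GX for normalization, which was not repeated. Here log2 of the processed intensity minus the array's 75th percentile was used, with limma 3.58.1 in R 4.3.3 (lmFit and eBayes on the 9 line arrays, 3 contrasts, Benjamini-Hochberg adjustment over 60804 probes, called at an adjusted p of 0.05 or less). Line minus testis was fitted on the line and testis arrays without a test. Other steps ran in pandas 2.3.3 and numpy 2.4.6 under Python 3.11.15, with figures from matplotlib 3.10.9. Arrays give no read depth, and precision is limited by having 3 of them in each group. Names came from the study's supplementary lists and RefSeq.

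The members, the role groups and the cell division list were chosen with earlier results of these data known. Every member could be named, with full values for the 3 called members with the largest difference per comparison and direction whose arrays did not overlap. Replicate 1 of all groups lay on the first slide, replicates 2 and 3 of testis on the second, and replicates 2 and 3 of the lines on the third. For replicates 2 and 3, a difference between line and testis thus cannot be told apart from one between slides. All same-numbered line arrays deviated together with correlations over 0.1 (0.125 to 0.543), the criterion used for a replicate block. Replicates 2 and 3 of different lines, which shared a slide, also had positive correlations (0.0942 to 0.367). Only replicate 2 of F9 with replicate 3 of GC-1 was under the criterion. The replicate number and the slide thus cannot be told apart. The fit was tested on simulated data with 200 of 60804 probes changed in F9. Differences of 1 log2 unit were recovered in 10.4% for F9 minus GC-1 and 16.4% for F9 minus GC-2. Differences of 2 units were recovered in 80.6% and 86.6%. In the data far more probes were called (14259 between F9 and GC-1), which eases the adjustment, so these shares do not carry over. A probe not called may still differ between the lines. Alternatives covered scaling, background correction, floor, filter, blocks and leaving out arrays.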

Additional observations from a re-analysis of the deposited data

Results flagged for a closer look

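For Diap3 and XLOC_007344, every array of 1 line lay above all testis arrays and every array of another line lay below them. No share over all probes is given for this pattern. Diap3 lay below testis in F9 (-0.21) and GC-1 (-1.49) and above it in GC-2 (0.82), with an SE of 0.27 each. The F9 value was thus smaller than its SE. The lines themselves differed by -1.03 for F9 minus GC-2 and by -2.31 for GC-1 minus GC-2, both called by limma with Benjamini-Hochberg adjustment (adjusted p = 0.0286 and 0.000752). XLOC_007344 lay above testis in F9 (1.41) and below it in GC-1 (-0.90), with an SE of 0.41 each, and F9 minus GC-1 was 2.31 (adjusted p = 0.0032 in the same fit). The opposite signs against testis depended on the scaling. With arrays scaled on the probes well above background on all 24 arrays, Diap3 was at -1.80, -2.97 and -0.72 in F9, GC-1 and GC-2, and XLOC_007344 at -0.18 in F9 and -2.38 in GC-1, all below testis, and with centring on the median of the probes well above background the values for Diap3 in GC-2 and XLOC_007344 in F9 were -0.31 and -0.07. With 3 arrays per group, a single outlying array could only be compared with the rest of its group or left out. The Diap3 call between F9 and GC-2 was lost without replicate 2 or 3 of F9 or replicate 1 or 3 of GC-2. The other calls of this paragraph were kept with any 1 array left out.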

How the results depend on the processing

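Of the 32 called differences of members, 19 stayed past the threshold in every alternative run with a test and 13 were lost in at least 1. None changed sign in 704 recomputed values, but for many of these no other outcome was possible. As the arrays of these calls did not overlap, leaving out arrays or keeping 1 slide could not turn a sign. The filters, blocks and fits on the same scaling kept the same difference. There the unchanged sign is no further support. The numbers of members called between F9 and GC-1, F9 and GC-2, and GC-1 and GC-2 were 2, 2 and 0 when a fold of at least 5 was also asked, and 30, 29 and 10 on the 6 line arrays of the third slide alone (chosen after seeing the data). Of the 19940 probes on in every line, 1107, 1047 and 422 were called with that fold. The third slide alone called 12609, 12636 and 6025 of them, and 38089, 37962 and 11003 of all 60804 probes. The rise on that slide was thus not particular to the members. With the slide as a block they were 20 for F9 and GC-2 and 6 for GC-1 and GC-2, and with only probes well above background in at least 1 line, 18 for F9 and GC-2. Of the 19940 probes, the slide block called 10739 and 4331 in these comparisons, and the filter 9025 between F9 and GC-2. Leaving out 1 array gave 12 to 22, 9 to 16 and 2 to 6, where 4999 to 8207, 4701 to 8998 and 1281 to 3062 of the 19940 were called. For the third slide and the left-out arrays, the same background holds for the cell division mRNAs. Besides the losses given with the values above, the calls between F9 and GC-1 of Spata5, Zfp451, Ccdc77 and Nlrp4e were each lost without replicate 3 of GC-1, the first 3 also without replicate 2 of F9, Spata5 and Ccdc77 without replicate 3 of F9 and Zfp451 without replicate 2 of GC-1. Centring on the median of present probes also lost those of Zfp451, Ccdc77 and Nlrp4e, and the fit of all 24 arrays that of Nlrp4e. The replicate block gave 21, 15 and 3 calls, adding 8 calls, losing that of C920006O11Rik and changing no other. For cell division mRNAs, a fold of at least 5 left 1, 1 and 0, the third slide alone gave 28, 27 and 11, the fit of all 24 arrays 9 for F9 and GC-2, and for GC-1 and GC-2 centring on the median of present probes gave 2, normexp 7, the filter 7, quantile normalization 8 and the slide block 8. Of the 19940 probes, the fit of all 24 arrays called 7311 between F9 and GC-2, against 6875 in the fit used throughout. Between GC-1 and GC-2 the other settings called 2203, 3807, 3950, 3507 and 4331 in that order, against 2444. Without 1 array the cell division mRNAs called were 9 to 19 (9 without replicate 2 or 3 of GC-1), 6 to 17 (6 and 7 without replicates 2 and 3 of F9, 9 without replicate 2 of GC-1, 7 without replicate 2 or 3 of GC-2) and 3 to 5. Members with a higher mean than in testis numbered 13, 12 and 12 in F9, GC-1 and GC-2 with the percentile taken over probes present on all arrays, and 15 in F9 with centring on the median of present probes. For these counts no share over all probes is given. Without 1 array they were 26 to 28, 19 to 20 and 24. The looser flag for a positive and significant signal would give 117 members in place of 45, and without 1 array 45 to 49. Members well above background on at least 1 array of the other tissues numbered 30 to 31 without 1 array. Normexp was planned on the mean signal, which the files used here do not hold, and was run on the median signal (chosen after seeing the data). Where no cause is given, the cause was not tested. Signals near background, such as those of Ccdc77 and Zfp451 in GC-1, limit the smallest differences that can be read.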
